A study of Mus musculus with 4 samples.

Results

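Serum amyloid A genes and genes of epithelial identity were examined, gene by gene, in each of 4 bulk RNA-seq libraries of perivascular adipose tissue (PVAT), collected as the tissue on the outside of the mouse femoral artery. The 10 genes were *Saa1*, *Saa2* and *Saa3*, the cysteine protease inhibitor gene *Cst6*, the cadherin gene *Cdh1*, the keratin genes *Krt7*, *Krt8*, *Krt18* and *Krt19*, and *Epcam*. They were chosen by name, as rows of the expression table with these symbols, after *Saa1*, *Cst6* and *Cdh1* had been seen to stand out in 1 library. Of the 10 genes, 4 (*Saa1*, *Saa3*, *Cst6* and *Cdh1*) are among the 12661 genes of the table. The other 6 were not analysed here. The tissue came from wild type C57BL/6 female mice (C57BL/6J in the study's methods), aged 11 weeks, and every animal, controls included, had been ovariectomized. In the injury group (2 libraries) a wire had been inserted into the femoral artery 48 h earlier, and the sham group (2 libraries) had a sham operation at the same interval. Whether a library came from 1 animal or from pooled animals is not given in the sources used here.

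The serum amyloid A proteins are small apolipoproteins of the acute phase response, and cytokines such as IL-1, IL-6 and TNF drive their transcription through NF-kB and C/EBP factors. In mice *Saa1* and *Saa2* are best known from liver, while *Saa3* is made outside the liver, in adipocytes and macrophages among other cells. E-cadherin, the product of *Cdh1*, holds epithelial cells together and is tied to actin through catenins. EPCAM and the keratins K7, K8, K18 and K19 are defining proteins of simple epithelia. *Cst6* encodes cystatin E/M, an inhibitor of legumain and cathepsins that is known from skin. Fat around the femoral artery lies close to skin, and in female mice to the inguinal mammary gland. Mesothelium also uses simple keratins.

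*Saa1*, *Saa2* and *Saa3* lie close together on chromosome 7. In mm9, the build of the study, with the GENCODE annotation, *Saa3* runs from 53967368 to 53971046 and *Saa1* from 53995871 to 53998350, both on the minus strand. *Saa2* runs from 54007203 to 54009684 on the plus strand. The coding sequences of *Saa1* and *Saa2*, 369 bases each, differ at 18 bases (95.1% identity), and 47 of the 320 stretches of 50 bases in *Saa1* (14.7%) occur unchanged in *Saa2*. Each symbol is also listed by RefSeq as a synonym of the other. The study's reads were paired and, before trimming, longer than 50 bases, so a smaller share of coding reads than of these stretches would fit both genes. How many reads did was not tested. The value listed for *Saa1* is uncertain with respect to *Saa2*, through the shared symbols and through any reads that fit both. Coding bases 90 to 149, counted from the A of the start codon, are the 60-base stretch in which the genes differ most (7 bases, in capitals), and are shown because they mark how little separates the pair:

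Saa1: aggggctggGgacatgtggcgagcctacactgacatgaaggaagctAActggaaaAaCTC

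Saa2: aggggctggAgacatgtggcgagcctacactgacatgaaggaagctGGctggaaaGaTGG

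The coding sequence of *Saa3* is 74.5% identical to that of *Saa1*, so *Saa3* is better separated. The RefSeq table of promoters (GRCm38.p6) held 7 of the 10 genes, all but *Cst6*, *Cdh1* and *Krt19*. The promoters of the *Saa* genes, from 250 bases before to 50 after the start, are shown because *Saa1* and *Saa3* are neighbours with different patterns across the libraries. Capitals mark matches, on either strand, to GGG followed by any 5 bases and CC (a loose NF-kB motif) or to TTNNGNAA (a loose C/EBP motif).

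Saa1 (chr7:46742931-46743230, minus strand): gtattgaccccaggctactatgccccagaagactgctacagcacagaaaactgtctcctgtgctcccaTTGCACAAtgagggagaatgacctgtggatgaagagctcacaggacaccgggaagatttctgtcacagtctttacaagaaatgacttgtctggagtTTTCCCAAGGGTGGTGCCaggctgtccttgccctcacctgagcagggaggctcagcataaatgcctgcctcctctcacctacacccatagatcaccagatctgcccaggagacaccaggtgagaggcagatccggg

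Saa2 (chr7:46751583-46751882, plus strand): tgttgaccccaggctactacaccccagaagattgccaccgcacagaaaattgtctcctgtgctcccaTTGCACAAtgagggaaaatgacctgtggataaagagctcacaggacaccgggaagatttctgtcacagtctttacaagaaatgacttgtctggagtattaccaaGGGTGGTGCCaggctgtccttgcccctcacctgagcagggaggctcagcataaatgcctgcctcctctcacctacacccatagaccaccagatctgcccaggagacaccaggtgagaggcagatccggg

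Saa3 (chr7:46715627-46715926, minus strand): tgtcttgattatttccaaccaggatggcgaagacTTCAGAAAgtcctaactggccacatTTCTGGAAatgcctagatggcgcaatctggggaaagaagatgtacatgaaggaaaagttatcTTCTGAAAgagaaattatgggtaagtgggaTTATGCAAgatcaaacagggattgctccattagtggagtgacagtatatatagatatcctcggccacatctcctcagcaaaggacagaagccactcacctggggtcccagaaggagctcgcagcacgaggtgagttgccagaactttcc

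In the *Saa1* promoter the long run of capitals joins a C/EBP match to the NF-kB match that follows it without overlap. The *Saa1* promoter held 2 C/EBP matches and 1 NF-kB match, and that of *Saa2* held 1 and 1. The promoter of *Saa3* held 4 C/EBP matches and no NF-kB match in these letters. These motifs are common. Of 32851 promoters of this length, 40.7% held the C/EBP letters and 50.8% the NF-kB letters. The promoters of *Saa1* and *Saa2* were 95.3% identical, and those of *Saa1* and *Saa3* 49.4%.

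The deposited values are signed decimals, 50.5% of them below 0, and what sets their zero and their scale is not given in the sources used here. They are not centred on these 4 libraries, and *Saa3*, for one, was above 0 in each. They are called deposited units here, and no fold change is printed. They were read as how a gene differs between libraries and not as how abundant it is, so that levels of different genes cannot be compared. Values of the whole table ran from -2.27 to 6.45, and the spread (SD over genes) of the 4 libraries was 0.32 to 0.44. Depth is unknown. The filter that left the listed genes is not given either, and a gene may have passed it through the library in which it is high. All 12 adipocyte genes looked for, among them *Adipoq* and *Plin1*, were in the table.

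*Saa1* was at 6.45 in sham replicate 1, at 1.07 in sham replicate 2, at -0.51 in injury replicate 1 and at -0.75 in injury replicate 2. Sham replicate 1 stood far above the other 3 libraries, and sham replicate 2 also lay above both injury libraries, by 1.58 units. Sham values were 3.76 ± 3.81 (SD, n = 2) and injury values -0.63 ± 0.17 (SD, n = 2). The difference of injury minus sham, -4.39, became -1.70 when sham replicate 1 was left out and -7.08 when sham replicate 2 was.

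*Saa3*, the listed gene next to *Saa1* on one side, showed nothing of this pattern. It was at 0.33 and 0.28 in the sham libraries and at 0.11 and 0.43 in the injury libraries. The groups overlapped. Sham values were 0.30 ± 0.034 (SD, n = 2) and injury values 0.27 ± 0.23 (SD, n = 2). The difference of -0.031 was far within this spread, and it turned to 0.13 without injury replicate 1 and to 0.011 after quantile normalization of the 4 columns.

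*Cst6* (chromosome 19 of mm9, 5344705 to 5349574, minus strand) stood apart in the other sham library. It was at 0.066 in sham replicate 1, at 4.78 in sham replicate 2, at -1.04 in injury replicate 1 and at -0.22 in injury replicate 2. Sham replicate 1 lay only 0.29 units above the higher injury library. Sham values were 2.42 ± 3.33 (SD, n = 2) and injury values -0.63 ± 0.58 (SD, n = 2). The difference of injury minus sham, -3.06, became -5.41 when sham replicate 1 was left out and -0.70 when sham replicate 2 was.

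*Cdh1* (chromosome 8 of mm9, 109127251 to 109194146, plus strand) was highest in sham replicate 1, as *Saa1* was, but by less. It was at 2.23 in sham replicate 1, at 0.262 in sham replicate 2, at 0.235 in injury replicate 1 and at -0.83 in injury replicate 2. Sham replicate 2 and injury replicate 1 were 0.027 units apart, so the groups barely separated. Sham values were 1.24 ± 1.39 (SD, n = 2) and injury values -0.30 ± 0.76 (SD, n = 2). The difference of -1.54 became -0.56 when sham replicate 1 was left out and -2.53 when sham replicate 2 was.

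**Figure D1:**
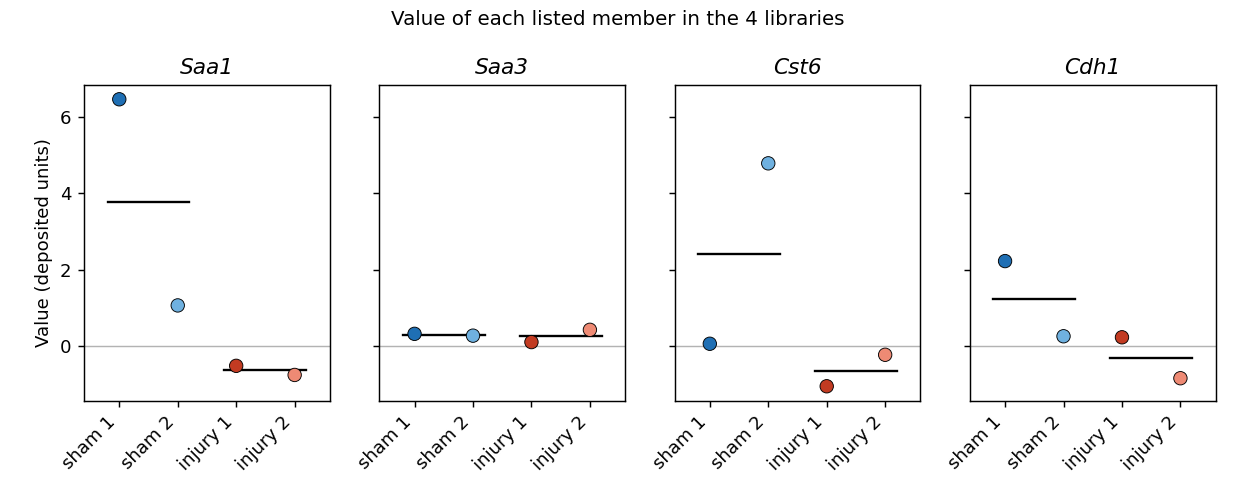
Value of *Saa1*, *Saa3*, *Cst6* and *Cdh1* in deposited units (y axis) in each library (x axis), with black lines at the group means. *Saa1* reached 6.45 and *Cdh1* 2.23 in sham replicate 1, *Cst6* reached 4.78 in sham replicate 2, and *Saa3* stayed between 0.11 and 0.43.

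The high library was thus sham replicate 1 for *Saa1* and *Cdh1* and sham replicate 2 for *Cst6*, and no library was highest for all 3 genes. These values chose the genes, and they are given as a description with no test. In 3 of the 4 genes (*Saa1*, *Cst6* and *Cdh1*) both injury libraries lay below both sham libraries, a pattern that 30.3% of all genes show (61.9% counting either direction). The highest library led the next by at least 1 unit for *Saa1*, *Cst6* and *Cdh1*, as it did in 1.6% of all genes. Nothing is read from these shares, because the same values chose the genes.

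The gap between the sham libraries, which is what chose *Saa1*, *Cst6* and *Cdh1*, is given here as a description. The libraries of sham replicates 1 and 2 differed by 1 unit or more in 121 genes (0.956%), with a median gap over all genes, regardless of sign, of 0.155. The gap of *Saa1*, 5.38, was the largest of all. That of *Cst6*, -4.71 (higher in sham replicate 2), came next, and that of *Cdh1*, 1.96, had rank 4. The order of the first pair depended on the scaling, since quantile normalization gave 3.26 for *Saa1* and -4.53 for *Cst6*, and scaling the columns to one spread gave 4.53 and -4.98. The gap of *Saa3*, 0.048, was smaller than that of most genes (rank 10470). Between the injury libraries, where 303 genes differed by 1 unit or more, *Saa1* differed by 0.24 (rank 5171), *Saa3* by -0.32 (rank 3667), *Cst6* by -0.82 (rank 542) and *Cdh1* by 1.07 (rank 240).

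**Figure D2:**
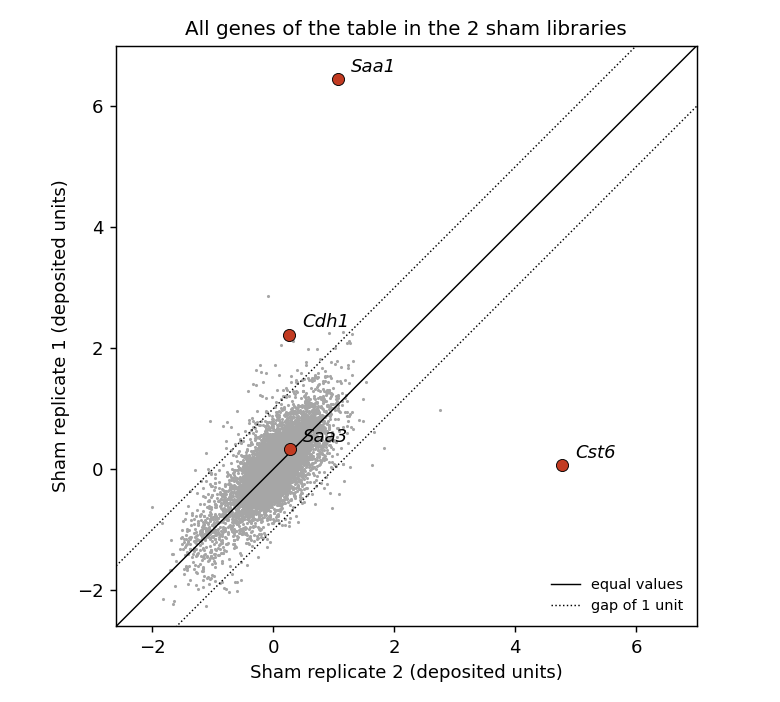
Each of the 12661 genes by its value in sham replicate 2 (x axis) and sham replicate 1 (y axis), in deposited units, with the line of equal values and dotted lines at a gap of 1 unit. *Saa1* (gap 5.38) and *Cdh1* (1.96) lie above the dotted lines, *Cst6* (-4.71) lies below them, and *Saa3* (0.048) lies near the line of equal values.

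Gaps of the genes next to the members on the chromosome are given as a description. *Saa1*, *Cst6* and *Cdh1* were chosen for their gaps, so smaller gaps in their neighbours were all but fixed in advance. Of the 3 listed genes on either side of *Saa1* (*Sergef*, *Saal1*, *Saa3*, *Hps5*, *Gtf2h1* and *Ldha*), gaps between the sham libraries ran from -0.22 to 0.19. Around *Cst6* (*Klc2*, *Pacs1*, *Sf3b2*, *Banf1*, *Eif1ad* and *Sart1*) they ran from -0.065 to 0.30. Around *Cdh1* (*Smpd3*, *Zfp90*, *Cdh3*, *Chtf8*, *Cirh1a* and *Sntb2*) they ran from -0.33 to 0.86. *Smpd3*, a sphingomyelinase gene, was at 0.90 in sham replicate 1 and at 0.043 in sham replicate 2, a gap of 0.86 in the direction of *Cdh1*. *Cdh3*, the P-cadherin gene beside *Cdh1*, was at 0.48 in sham replicate 1 and at 0.81 in sham replicate 2, the opposite order to *Cdh1*. This choice by position was made after the values of the members had been seen.

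Genes with the highest gaps in favour of sham replicate 1, after *Saa1*, were *Gkn3* (2.95), *Cdh1* (1.96), *Adra2a* (1.95), *Tns4* (1.93), *Atp2b2* (1.92), *Ms4a8a* (1.85), *F2rl1* (1.81), *Plekha6* (1.78) and *Atp1b1* (1.75). They include a gastrokine gene (*Gkn3*), an adrenergic receptor (*Adra2a*), a calcium pump (*Atp2b2*) and a sodium pump subunit (*Atp1b1*). Those with the largest gaps in favour of sham replicate 2, after *Cst6*, were *Ucp1* (-1.79), *Disp2* (-1.62), *Olr1* (-1.57), *Gyk* (-1.50), *Sbsn* (-1.48), *Ccl3* (-1.40), *Serpina3m* (-1.37), *H2-M9* (-1.34) and *Cxcl2* (-1.31). Among these are the brown fat uncoupling protein (*Ucp1*), glycerol kinase (*Gyk*), suprabasin of keratinocytes (*Sbsn*) and the chemokines *Ccl3* and *Cxcl2*.

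Patterns over the 4 libraries were compared by the Euclidean distance between values centred on each gene's own mean. *Saa1* and *Cst6* were chosen for their extreme values, so their distance from all other genes follows from that choice. The pattern of *Saa1* had a length of 5.81, and the nearest gene, *Gkn3*, was 2.92 away, with *Adamts8* (3.64), *Cytl1* (3.65) and *Nov* (3.66). For *Cst6*, with a length of 4.56, the nearest genes were *Mup2* (2.95), *Vwf* (3.0), *Amigo2* (3.02), *Mup11* (3.03) and *Sbsn* (3.04). *Mup2* and *Mup11* belong to a family of near-identical genes, between which reads can be shared. *Cdh1*, with a length of 2.21, had nearer genes, namely *Plekha6* (0.50), *Adh7* (0.77), *F2rl1* (0.79), *Atp2b2* (0.83) and *Vegfc* (0.85). For *Saa3* the pattern was nearly flat (length 0.23), and the nearest genes, *Pet100* (0.0028), *Synrg* (0.023), *1110032A03Rik* (0.027), *4930592A05Rik* (0.033) and *Add3* (0.036), were equally flat. These distances rest on 4 libraries.

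Whether other epithelial genes separated the same libraries was then examined by lists. In this bulk tissue, fewer cells of a type and less RNA per cell cannot be told apart. Of 49 other genes of simple epithelia, 16 were in the table. Sham replicate 1 was the higher of the sham libraries in 10 of them, against 51.6% of all genes. The median gap was 0.15 (0.084 after quantile normalization), against 0.0083 over all genes. A gap of at least 1 unit in favour of sham replicate 1, found in 0.6% of all genes, was seen in 2 of the 16, and none had such a gap the other way. *Spint1*, encoding a membrane inhibitor of serine proteases, was at 0.96 in sham replicate 1, -0.13 in sham replicate 2, -0.0018 in injury replicate 1 and -0.21 in injury replicate 2. *Myh14*, a non-muscle myosin heavy chain gene, was at 1.21, 0.15, 0.17 and 0.57 in the same order. *Ceacam1*, encoding a cell adhesion molecule that other cells also carry, followed with 1.62, 0.86, 0.24 and 0.15. Sham replicate 1 was the highest library for each of these genes. The lowest gaps of the list were those of *Pkp3* (-0.25), *Ovol1* (-0.24) and *Prss8* (-0.13). The mean over the 16 genes was 0.45 in sham replicate 1, 0.17 in sham replicate 2, 0.069 in injury replicate 1 and 0.078 in injury replicate 2. The other 33 genes of the list were not analysed here, nor were *Krt7*, *Krt8*, *Krt18*, *Krt19* and *Epcam*, so that these defining genes of simple epithelium give no value beside that of *Cdh1*.

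Genes of basal and stratified epithelium, including skin, were mostly higher in sham replicate 2. Of 41 genes 8 were in the table, and 7 of the 8 were higher in sham replicate 2, against 48.4% of all genes, with a median gap of -0.39 (-0.74 after quantile normalization). A gap of at least 1 unit in favour of sham replicate 2, found in 0.355% of all genes, was seen in 2 of the 8. *Sbsn* was at 0.35 in sham replicate 1, 1.83 in sham replicate 2, -0.12 in injury replicate 1 and 0.11 in injury replicate 2. *Krt79*, a keratin of the hair follicle opening, was at -0.54, 0.51, -0.21 and -0.25. *Trp63*, the master regulator of basal epithelial cells, followed with a gap of -0.69. Sham replicate 2, in which *Cst6* was high, was the highest library for each of *Sbsn*, *Krt79* and *Trp63*. The highest gaps of the list, those of *Sfn* (0.012), *Itga6* (-0.052) and *Ly6d* (-0.16), were near 0 by comparison. The list mean was 0.34 in sham replicate 1, 0.87 in sham replicate 2, -0.20 in injury replicate 1 and 0.027 in injury replicate 2. Of the keratin genes of the list, *Krt79* alone was in the table, and *Krt5*, *Krt14*, *Krt1* and *Krt10*, which define basal and upper skin layers, were not analysed here. The part of epithelium in the values of *Saa1*, *Cst6* and *Cdh1* was not tested.

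**Figure D3:**
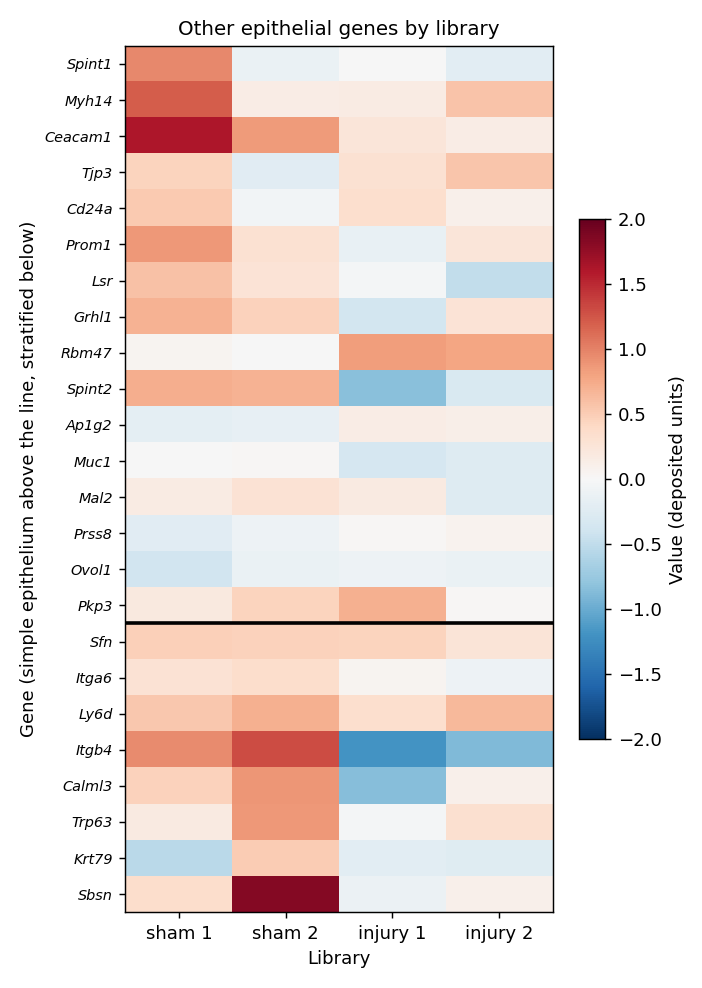
Values in deposited units (colour scale, -2 to 2) of the 16 simple and 8 stratified epithelial genes, sorted within each list by the gap between the sham libraries, in the 4 libraries. *Ceacam1* is highest in sham replicate 1 (1.62) and *Sbsn* in sham replicate 2 (1.83).

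Mammary and mesothelial genes were evenly divided between the sham libraries. Of 22 genes of the mammary epithelium and its products 4 were in the table, and 2 were higher in each sham library, with a median gap of -0.21 (-0.35 after quantile normalization) and gaps from -0.51 for the prolactin receptor gene *Prlr* to 0.099 for the ion transporter gene *Slc12a2*. The milk protein genes of the list were not analysed here. Of 15 mesothelial genes 6 were in the table, 3 higher in each sham library, with a median gap of 0.015 and gaps from -0.33 to 0.36.

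Genes of other cell types were compared between the sham libraries in the same way, and some lists leaned to 1 library while others did not. Over all genes 51.6% were higher in sham replicate 1 and 48.4% in sham replicate 2. Smooth muscle genes were higher in sham replicate 1 in 8 of 8 (median gap 0.72, 0.34 after quantile normalization). So were skeletal muscle genes in 7 of 8 (0.80) and fibroblast genes in 9 of 9 (0.31). Neutrophil genes were higher in sham replicate 2 in 7 of 8 (-0.40) and adipocyte genes in 9 of 12 (-0.082). After quantile normalization these medians were -0.26 and -0.15. Macrophage genes were divided 6 to 6, and endothelial genes 4 to 5. Lymph node genes were higher in sham replicate 1 in 5 of 7 (median gap 0.23, range -0.88 to 0.85) and Schwann cell genes in 4 of 8 (0.15). The mean of the smooth muscle list was 1.55 and 0.88 in the sham libraries and -1.14 and -0.15 in the injury libraries, and that of the skeletal muscle list was 0.60 and -0.15 in the sham libraries and -0.17 and -0.28 in the injury libraries. The neutrophil list was at -1.02 and -0.66 in the sham libraries and at 1.11 and 0.067 in the injury libraries. The part of these cell types in the values of the members was not tested.

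**Figure D4:**
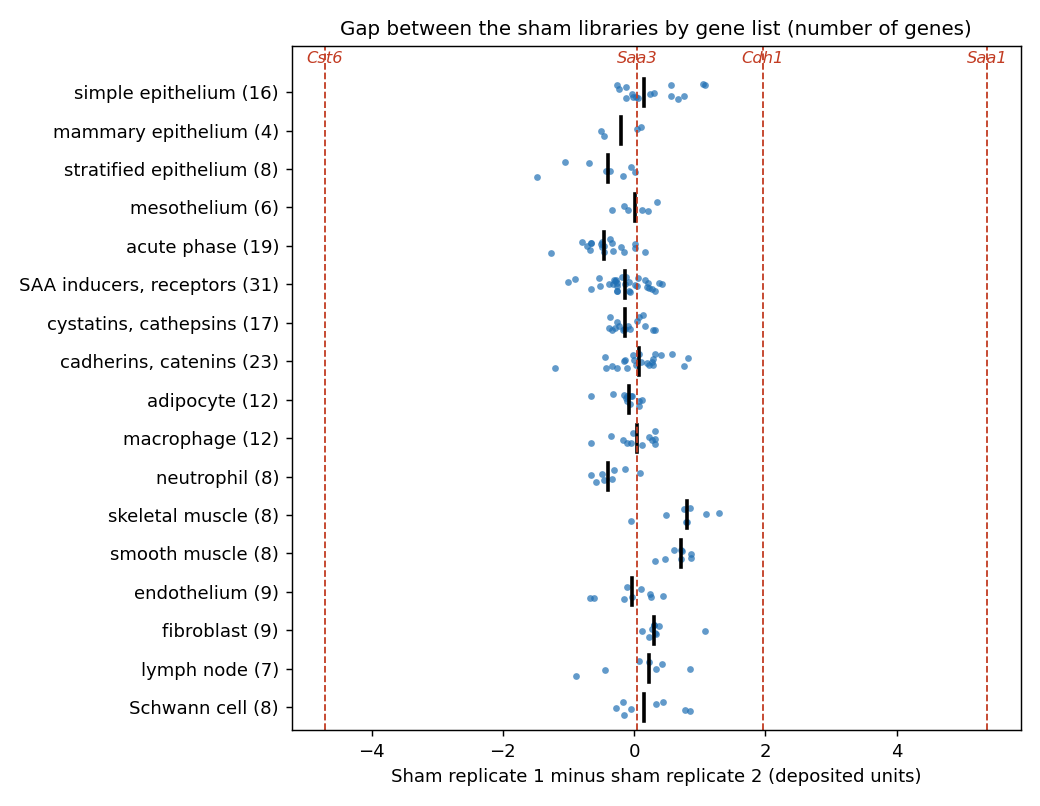
Gap between the sham libraries (replicate 1 minus replicate 2, deposited units, x axis) for each gene of 17 lists (rows, number of genes in brackets), with black bars at the list medians and dashed lines at the gaps of *Saa1*, *Saa3*, *Cst6* and *Cdh1*. Gaps of the simple epithelial genes run from -0.25 to 1.09 and of the stratified from -1.48 to 0.012. *Saa1* (5.38) and *Cst6* (-4.71) were chosen for their gaps.

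Acute phase genes did not follow *Saa1* across the sham libraries. Of 29 genes 19 were in the table, and 16 of the 19 were higher in sham replicate 2, against 48.4% of all genes, with a median gap of -0.46. *Orm2*, an orosomucoid gene with close copies, was at -0.57 in sham replicate 1 and at 0.69 in sham replicate 2, the lowest gap of the list (-1.26). *Mt2*, a metallothionein gene (-0.79), and the haptoglobin gene *Hp* (-0.71) came next. *Lcn2* (-0.46) and *Serpina3n* (-0.65) lay on the same side. The highest gaps were those of *Itih4* (0.17), *Orm3* (0.017) and *C3* (0.0088). Sham replicate 1, the library with the high *Saa1* value, was thus the lower of the sham libraries for most acute phase genes listed.

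After injury 2 of the 19 acute phase genes passed the limma threshold (adjusted p-value under 0.05, Benjamini-Hochberg adjustment over all genes) and both fell. The threshold was passed by 7.43% of all genes, with 3.76% higher and 3.67% lower after injury. *Lbp*, encoding the lipopolysaccharide-binding protein, was at 0.37 and 0.71 in the sham libraries and at -1.39 and -1.02 in the injury libraries, a difference of -1.75 (standard error 0.20, adjusted p = 0.0285). *Cp*, encoding ceruloplasmin, differed by -0.91 (standard error 0.17, adjusted p = 0.0410). Both calls were lost without sham replicate 1 or sham replicate 2, and that of *Cp* also without injury replicate 1. Without either sham library nearly every call of the whole table was lost. Such losses, here and below, are therefore not particular to the genes named. The lipopolysaccharide receptor gene *Cd14* was higher after injury by 1.48 and the pentraxin gene *Ptx3* by 1.27, without passing (adjusted p = 0.0558 and 0.0691 from limma). *Lcn2* had lower values after injury by 0.97 on the deposited scale (0.63 and 1.09 against 0.079 and -0.30), also without passing (adjusted p = 0.0594 from limma). The median difference of the list was -0.19, against 0.0085 over all genes.

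All 31 genes listed as inducers of *Saa* transcription or as receptors of the proteins were in the table. Their median gap between the sham libraries was -0.14, and 20 were higher in sham replicate 2, against 48.4% of all genes. Over injury against sham 1 gene rose and 1 fell by limma, close to the shares of all genes (3.76% higher and 3.67% lower). *Cebpb*, a C/EBP factor of the acute phase, rose from -0.42 and -0.59 in the sham libraries to 0.58 and 0.74 in the injury libraries (difference 1.17, standard error 0.15, adjusted p = 0.0285). *Il6st*, encoding the shared receptor subunit gp130, fell from 0.37 and 0.54 to -0.51 and -0.39 (difference -0.90, standard error 0.15, adjusted p = 0.0327). Leaving out either sham library ended both calls, and leaving out injury replicate 1 ended that of *Il6st*. *Il1b* was at -1.89 and -0.88 in the sham libraries and at 1.72 and -0.22 in the injury libraries. The formyl peptide receptor gene *Fpr2*, a receptor of SAA, was at -1.31 and -0.92 after sham operation and at 1.71 and 0.17 after injury. Neither passed the threshold (adjusted p = 0.11 for *Il1b* and 0.0659 for *Fpr2* from limma). In 13 of the 31 genes both injury libraries lay above both sham libraries, against 31.6% of all genes, while *Saa1* lay below and *Saa3* overlapped. By limma 8 of 12 macrophage genes and 2 of 8 neutrophil genes also rose after injury, against 3.76% of all genes, and none of either list fell. The other genes of these lists did not pass, and *Cd163* and *Lcn2* had lower values after injury. The macrophage count depended on the processing. *C1qa* and *C1qb* lost their calls after quantile normalization (adjusted p = 0.0535 and 0.0516 from limma) and after scaling of the columns. *Fcgr1* lost its call with a block for the replicate number (adjusted p = 0.0586 from limma). The part of these cells in the values of the inducers was not tested.

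Cystatins, cathepsins and legumain were represented by 17 of 28 genes. By limma 2 of the 17 rose after injury and none fell, against 3.76% and 3.67% of all genes. The list includes cathepsins of other protease classes (*Ctsa*, *Ctsd* and *Ctse*). Both injury libraries lay above both sham libraries in 12 of the 17, against 31.6% of all genes, and below them in 1. *Ctss*, the cathepsin S gene of myeloid cells, was at -1.65 and -1.32 in the sham libraries and at 1.12 and 0.27 in the injury libraries (difference 2.18, standard error 0.31, adjusted p = 0.0291). *Cstb*, the cystatin B gene, differed by 1.07 (standard error 0.18, adjusted p = 0.0330). Neither was called without sham replicate 1 or sham replicate 2, nor was *Cstb* without injury replicate 1. *Lgmn* and *Ctsl*, encoding legumain and cathepsin L, which cystatin E/M inhibits, had differences of 0.75 and 0.28 and did not pass (adjusted p = 0.122 and 0.276 from limma). Among 12 macrophage genes 11 lay above in the same way, and the macrophage list mean was -1.03 and -1.04 in the sham libraries and 0.35 and -0.14 in the injury libraries. The part of macrophages in the values of this list was not tested. The gaps of this list between the sham libraries ran from -0.38 to 0.32. In sham replicate 1 6 genes were higher and in sham replicate 2 11, against 51.6% and 48.4% of all genes.

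Other cadherins, catenins and repressors of *Cdh1* were represented by 23 of 41 genes. Gaps between the sham libraries ran from -1.2 for *Pvrl4*, a nectin gene, to 0.83 for *Cdh13*, the T-cadherin gene. Of the 23 genes 13 were higher in sham replicate 1, against 51.6% of all genes. The median gap was 0.070 (0.017 after quantile normalization). The catenin genes whose products bind E-cadherin had gaps of 0.070 (*Ctnnb1*), -0.0038 (*Ctnna1*), 0.28 (*Ctnnd1*) and 0.32 (*Jup*). The gap of *Cdh1*, which was chosen for it, was 1.96. Genes of *Cdh1* repressors were divided. *Snai2* (0.76), *Zeb1* (0.41), *Zeb2* (0.29) and *Tcf3* (0.11) were higher in sham replicate 1, and *Twist2* (-0.43), *Twist1* (-0.13) and *Snai1* (-0.022) in sham replicate 2. By limma 1 of the 23 genes, *Ctnnal1*, fell after injury (difference -1.23, standard error 0.18, adjusted p = 0.0301), close to the 3.67% of all genes. Its call was lost without sham replicate 1, sham replicate 2 or injury replicate 1.

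The limma threshold was passed after injury by 2 of 16 genes of simple epithelium, 1 of 8 of stratified epithelium, 2 of 6 of mesothelium and 0 of 4 of the mammary list, against 7.43% of all genes. In simple epithelium *Spint2*, encoding an inhibitor of serine proteases, fell from 0.73 and 0.69 to -0.84 and -0.31 (difference -1.29, standard error 0.21, adjusted p = 0.0327). *Rbm47*, encoding an RNA-binding protein, rose from 0.062 and -0.0053 to 0.84 and 0.80 (difference 0.79, standard error 0.13, adjusted p = 0.0345), and lost its call with a block for the replicate number (adjusted p = 0.0563 from limma, against 0.0320 to 0.0365 under the alternatives that keep all 4 libraries without a block), as it and *Spint2* did without sham replicate 1, sham replicate 2 or injury replicate 1. In stratified epithelium the integrin gene *Itgb4*, which Schwann cells and endothelium also use, fell from 0.94 and 1.3 to -1.2 and -0.89 (difference -2.16, standard error 0.19, adjusted p = 0.0285). In mesothelium *Pkhd1l1* (difference -2.34) and *Gpm6a* (difference -1.70) fell (adjusted p = 0.0285 for each from limma). *Itgb4*, *Pkhd1l1* and *Gpm6a* were not called without sham replicate 1 or sham replicate 2. No gene of the mammary list passed, while 4 of its 4 genes had an unadjusted p-value under 0.05, against 29.5% of all genes.

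Over the 8 lists of epithelial, mesothelial, acute phase, SAA, cystatin and cadherin genes, 122 genes were in the table, of which 4 rose and 8 fell by limma. Over all genes 3.76% rose and 3.67% fell. Fewer genes were called when sham replicate 1, sham replicate 2 or injury replicate 1 was left out. Without sham replicate 1, or without sham replicate 2, 0 of the 122 genes were called, and among all genes these counts were 0 and 1. Without injury replicate 1 there were 6 and without injury replicate 2 there were 40.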

How the data were processed

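PVAT of the femoral artery was measured by stranded mRNA-seq, with 2 sham and 2 injury libraries. Per the labels and the paper's methods the authors used FastQC 0.11.8, cutadapt 1.18, Trimmomatic 0.39, STAR 2.6.0a with mm9, featureCounts and DESeq2 1.28.0 in R 3.6.0. The deposited values are scores, signed decimals with column medians near 0, and not counts. How the authors made them from counts, and how genes were filtered, is not given in the sources used here. Depth is therefore unknown, and no interval for counting error is given. All 4 value columns carry a sample's title, and no filter was added.

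Injury and sham groups were compared by limma 3.58.1 in R 4.3.3 (lmFit and eBayes, group as the only term, two-sided), with Benjamini-Hochberg adjustment over 12661 genes and a threshold of 0.05. The fit was tested on simulated data. Gaps between libraries, and differences of the members, are values with no test. The p-values measure the spread between these libraries, which may be technical. Members and gene lists were chosen with earlier results of these data known. Named genes were all members, the 3 highest and 3 lowest gaps of a list where shown, up to 3 called genes of a list with the largest differences, the 10 highest and 10 lowest gaps overall and the 5 nearest patterns. A gene that is not reported here was left out of its list and of the nearest patterns. Further list genes are given as examples chosen after their values were seen. Alternatives were a replicate block, each library left out, a threshold of 0.1, quantile normalization, scaling of each column to the mean SD, limma's robust prior and keeping one copy of identical rows. Promoters come from RefSeq (GRCm38.p6), other coordinates from mm9 with GENCODE, which matched 92.3% of symbols. Python 3.11.15, pandas 2.3.3, numpy 2.4.6, Biopython 1.88 and matplotlib 3.10.9 were used.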

Additional observations from a re-analysis of the deposited data

How the results depend on the processing

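With 2 libraries a group, differences of the members rest on single libraries. Leaving out each library in turn, the difference of injury minus sham ran from -7.08 to -1.70 for *Saa1*, from -0.19 to 0.13 for *Saa3*, from -5.41 to -0.70 for *Cst6* and from -2.53 to -0.56 for *Cdh1*. The number of genes called ran from 0 to 1790 (0 to 943 higher, 0 to 847 lower) and that of the 122 list genes from 0 to 40, where the lone library of a group was assumed to vary like the other group. The cause was not tested. A threshold of 0.1 gave 2317 genes (1166 higher, 1151 lower) and 33 list genes, which follows from the threshold.

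The replicate numbers were not taken to pair the libraries, because no source says so and there are only 2 pairs. The correlation over genes of the sham gap with the injury gap was -0.094. With the replicate block 684 genes were called, 303 of them lower, against 941 without it, and 579 were called in both. Of the list genes 13 were called with the block against 12.

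Quantile normalization and scaling of the columns to one spread gave a sham gap of 3.26 and 4.53 for *Saa1*, of -4.53 and -4.98 for *Cst6* and of 1.76 and 1.68 for *Cdh1*. The gap of *Saa3* between the sham libraries went to -0.019 and -0.0073, and that of *Saa1* between the injury libraries to 0.62 and 0.42. Median gaps between the sham libraries were counted as moved where they changed by at least 0.12, the typical replicate SD over genes. They moved for mammary genes (-0.35 after quantile normalization), stratified epithelium (-0.74 and -0.54), macrophages (0.21 after scaling), neutrophils (-0.26 and -0.22) and smooth muscle (0.34 and 0.45). The cause was not tested. A smaller change turned the median of mesothelium from 0.015 to -0.063 and -0.030. The number of called cadherin and catenin genes was 2 under either of these alternatives, against 1.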
